A study of Homo sapiens with 6 samples.

Results

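The amino acid transporter genes of solute carrier families SLC1, SLC7, SLC36, SLC38 and SLC43 were measured in HCT116, an established human colorectal carcinoma cell line, on 6 Affymetrix whole-transcript arrays of 1 colour each. Members were all genes with a symbol of these 5 families in the platform annotation except SLC7A11, each on a probe set paired with exactly 1 symbol, and where a gene had several, the brightest on average was taken. This gave 37 of the 18417 genes tested. SLC43A3 was found only on a probe set that it shares with another gene and was not analysed here. Cells grown in DMEM with serum had received either siRNA duplexes against Che-1, a transcriptional cofactor whose gene is AATF (3 arrays labelled siChe-1), or duplexes against GFP (3 arrays labelled control), and both groups were taken 48 h after transient transfection. All 6 samples share the cell line and the transfection. Whether the 3 arrays of a label stem from separate cultures is not stated, so p-values measure the spread between these arrays, which may be technical. In such bulk RNA, fewer cells of a type and less RNA per cell cannot be told apart.

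Mammalian cells cannot make all amino acids, and polar ones cross membranes only through carriers. Sodium-coupled carriers concentrate amino acids inside the cell, and exchangers then trade one amino acid for another, so the uptake of leucine, for example, is tied to the release of glutamine. When amino acids run short, uncharged tRNA activates a kinase that slows translation and raises the transcription factor ATF4, whose targets include several of these carriers. Carriers in the lysosomal membrane also report amino acid supply to the mTORC1 kinase.

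The targeted gene went against the labels, as AATF read 8.53, 8.81 and 8.87 in the arrays labelled siChe-1, against 7.55, 7.75 and 7.55 in the arrays labelled control (log2 RMA intensity). It was 1.12 ± 0.13 higher (SE, limma adjusted p = 0.00122), and permuting the 6 labels exactly, on both sides, gave p = 0.1, the lowest value this design can give. Groups are therefore called by their labels, and "higher" and "lower" describe the siChe-1 label relative to the control label. Whether the labels were exchanged in the deposited values was not tested; if they were, every direction given here would be turned round. Array medians lay between 4.95 and 5.05. Of 9 colon epithelial markers, 8 (all but VIL1) had a mean over the 6 arrays above 4.12, the 95th percentile of 341 olfactory receptor genes, most of which are silent outside the nose. Their summed level was 13.4 to 13.5 in the arrays labelled siChe-1 and 13.8 in the arrays labelled control (log2 of summed intensity), and KRT19 was lower (-0.59, adjusted p = 0.0171). Only TYROBP of 6 leukocyte markers, only COL1A1 and COL1A2 of 6 fibroblast markers and none of 5 endothelial markers lay above 4.12. Summed levels in the arrays labelled siChe-1 against those labelled control were 6.80 to 6.96 against 6.70 to 6.77 for the leukocyte list, and 7.76 to 7.94 against 7.56 to 7.58 for the fibroblast list. They were 5.60 to 5.79 against 5.52 to 5.65 for the endothelial list and 8.41 to 8.51 against 8.03 to 8.07 for the list of 5 neural genes. In the neural list 4 genes lay above 4.12, and SYT1 was higher (0.63, adjusted p = 0.0186). The part of these markers in the results below was not tested.

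Few of the transporter genes differed, and those that did went both ways. By limma, with p-values adjusted over all 18417 genes, 3 of the 37 were higher (SLC43A1, SLC1A4 and SLC38A3), 2 were lower (SLC38A5 and SLC7A6) and 32 did not pass at 0.05. That is 13.5% of the members, where 3.72% of all genes passed, 1.19% higher and 2.52% lower. The split over all genes was 220 higher and 465 lower, and 170 higher and 680 lower after centring each array on its median, which moved the median of all genes to -0.06; the 5 members passed either way. The 5 differences were between 1.49-fold and 1.84-fold. The median difference of the 37 genes was 0.02 on the log2 scale, and that of all genes was 0.01. Arrays of the 2 labels did not overlap for 9 members (24.3%), a share close to the 24.0% over all genes.

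**Figure D1:**
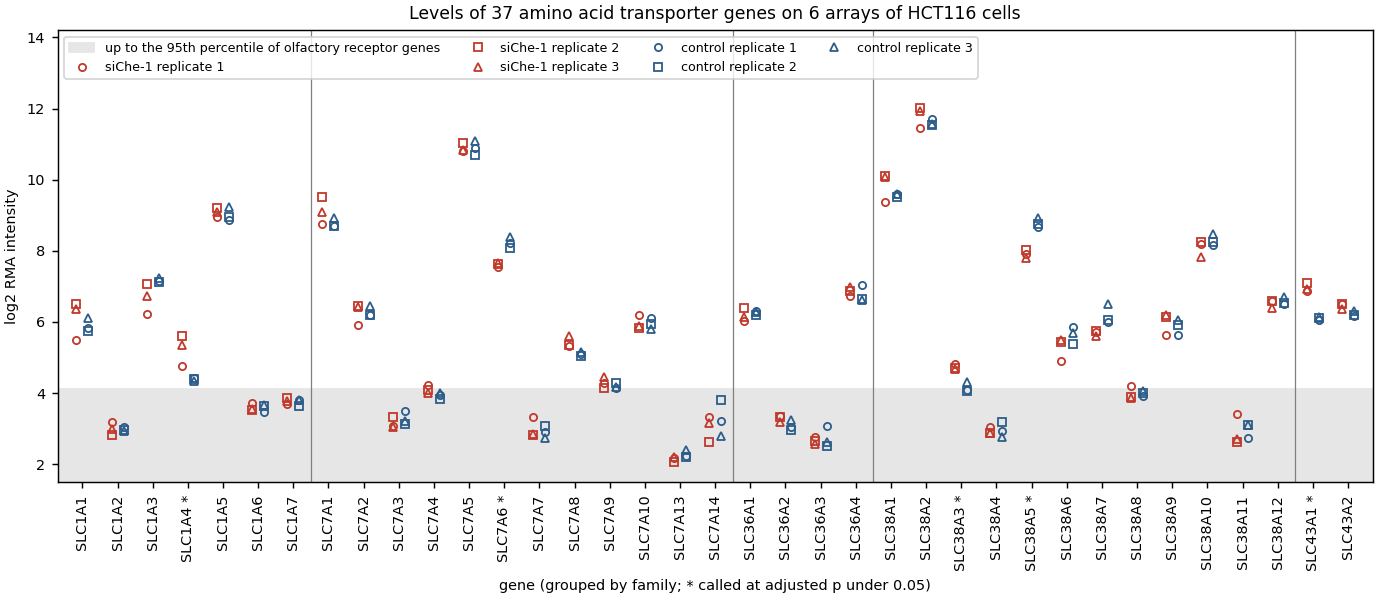
Log2 RMA intensity (vertical axis) of each of the 37 genes (horizontal axis) on each array, with siChe-1 arrays in red on the left of each gene and control arrays in blue on the right; the grey band ends at 4.12, the 95th percentile of the olfactory receptor genes, and stars mark the 5 called genes. Group means of 13 genes lie in the grey band in both groups, and siChe-1 replicate 1 sits low in its group for genes such as SLC1A1, SLC1A4 and SLC38A1.

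Levels spanned nearly the whole scale. Probe sets differ in how well they bind, so levels of different genes are not amounts of RNA, and the olfactory receptor range is only a guide to where a signal may be background. Both group means lay above 4.12 for 24 members, including all 5 that passed, and below it for the other 13. Those 13 were SLC1A2, SLC1A6, SLC1A7, SLC7A3, SLC7A4, SLC7A7, SLC7A13, SLC7A14, SLC36A2, SLC36A3, SLC38A4, SLC38A8 and SLC38A11. Their differences ran from -0.23 to 0.21 on the log2 scale. Of all genes, 3.72% passed by limma and 3251 of 18417 had an unadjusted p under 0.05. Of these 13 members none passed, and 0 had an unadjusted p under 0.05. Since these signals are not shown to be above background, they do not show that these genes were unchanged. Several of them are known from other tissues, such as SLC1A2 in astrocytes, SLC38A4 in liver and SLC36A2 in kidney.

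**Figure D2:**
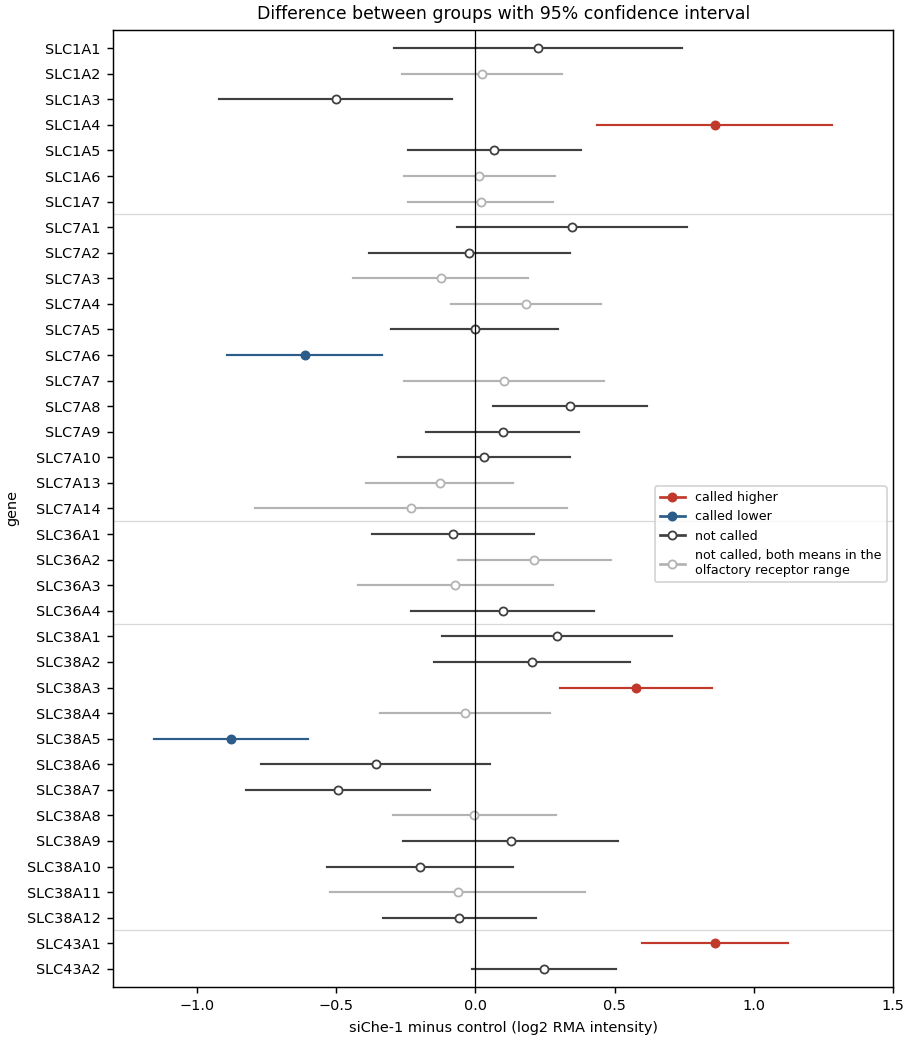
Difference siChe-1 minus control in log2 RMA intensity (horizontal axis) for each of the 37 genes (vertical axis, by family), with bars for the 95% confidence interval of the limma fit. Filled red points (SLC1A4, SLC38A3 and SLC43A1) passed as higher and filled blue points (SLC7A6 and SLC38A5) as lower; pale points have both group means in the olfactory receptor range.

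Sequence up to the transcription start, or to the end of a motif across it, is shown for 3 of the genes that passed. They are those in which a searched motif was found, and the motif is in capitals. The windows are those of RefSeq on GRCh38.p14, from 250 bases before to 50 bases after a start, and 31 of the 37 genes had 51 windows between them. SLC1A2, SLC7A2, SLC7A3, SLC7A4, SLC7A13 and SLC38A3 were not matched. SLC7A6, which also passed, was matched and held none of the searched motifs. Positions count from the start site, with -1 as the base before it. SLC1A4 (chr2:64989149-64989399, plus strand) carries TTGCATCA from -7, which runs across the start and ends the stretch shown. It is the reverse complement of TGATGNAA, which is the core of the element that ATF4 binds with a C/EBP partner. SLC43A1 (chr11:57515703-57515952, minus strand) and SLC38A5 (chrX:48470261-48470510, minus strand) carry CACGTG, the E-box bound by MYC and its relatives, from -112 and -206.
SLC1A4: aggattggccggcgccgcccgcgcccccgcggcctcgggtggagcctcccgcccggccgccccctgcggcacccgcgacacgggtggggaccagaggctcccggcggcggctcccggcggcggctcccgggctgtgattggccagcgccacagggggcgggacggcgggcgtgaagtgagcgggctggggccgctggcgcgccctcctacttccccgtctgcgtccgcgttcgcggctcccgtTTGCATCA
SLC43A1: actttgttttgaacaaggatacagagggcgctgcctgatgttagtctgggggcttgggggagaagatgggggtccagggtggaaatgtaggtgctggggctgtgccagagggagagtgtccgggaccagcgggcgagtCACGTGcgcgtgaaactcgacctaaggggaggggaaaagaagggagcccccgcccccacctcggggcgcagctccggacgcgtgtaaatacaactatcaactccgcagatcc
SLC38A5: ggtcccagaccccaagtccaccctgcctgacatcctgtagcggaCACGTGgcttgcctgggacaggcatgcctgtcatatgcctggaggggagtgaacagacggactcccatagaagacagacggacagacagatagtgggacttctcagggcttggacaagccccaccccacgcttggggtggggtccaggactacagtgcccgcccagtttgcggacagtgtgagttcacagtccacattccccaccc

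The same motifs were present in windows of genes that did not pass. TGATGNAA, on either strand, was in 5 of the 51 windows, against 3.62% of all 35116 windows, and its genes were SLC1A3, SLC1A4, SLC1A5, SLC7A1 and SLC38A1. CACGTG, which reads the same on both strands, was in 9 windows, against 7.26% of all windows. Beside SLC43A1 and SLC38A5 its genes were SLC1A5, SLC1A7, SLC7A5, SLC7A7, SLC7A8, SLC36A1 and SLC38A7. A form of the interferon response element, with any 2 bases between 2 copies of GAAA, on either strand, was in 2 windows, of SLC7A7 and SLC38A4, against 3.57% of all windows. The TGATGNAA and CACGTG of SLC1A5 lie before different starts of that gene. The TGATGNAA of SLC7A1 begins at position 8 and the CACGTG of SLC38A7 at position 15, both after the start. The TGATGNAA of SLC38A1 begins at -4 and, like that of SLC1A4, runs across the start. Short stretches around the TGATGNAA matches of SLC1A5 (chr19:46784889-46784926), SLC7A1 (chr13:29595659-29595696) and SLC38A1 (chr12:46266498-46266535), and around the CACGTG of SLC7A5 (chr16:87869617-87869652), all on the minus strand, are given for comparison with the genes above. A match is a run of letters and does not show that a factor binds.
SLC1A5: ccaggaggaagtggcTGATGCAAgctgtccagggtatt
SLC7A1: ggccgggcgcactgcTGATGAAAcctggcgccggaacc
SLC38A1: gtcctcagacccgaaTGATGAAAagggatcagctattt
SLC7A5: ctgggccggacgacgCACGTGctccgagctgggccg

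The SLC43 carriers move large neutral amino acids such as leucine and phenylalanine by facilitated diffusion, with no partner subunit. SLC43A1 read 6.87, 7.10 and 6.93 in the arrays labelled siChe-1, against 6.07, 6.10 and 6.15 in the arrays labelled control. Every array labelled siChe-1 stood above every array labelled control, and the gap between the groups was wider than the spread within either. The mean was 6.97 ± 0.12 against 6.11 ± 0.04 (SD, n = 3 each), a rise of 0.86 ± 0.12 (SE) or 1.82-fold, with a limma adjusted p = 0.00283. SLC43A2, a carrier of the same kind, read 6.51, 6.51 and 6.37 in the arrays labelled siChe-1, against 6.15, 6.19 and 6.31. Its groups did not overlap but its difference of 0.25 did not pass (95% confidence interval -0.01 to 0.51, limma adjusted p = 0.311). The chromosome 11 neighbours of SLC43A1 among the tested genes, RTN4RL2 (0.25) and TIMM10 (-0.26), did not pass.

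In the SLC1 family, the neutral exchanger SLC1A4, which carries alanine, serine and cysteine, was higher. It read 4.77, 5.60 and 5.35 in the arrays labelled siChe-1, against 4.41, 4.39 and 4.34 in the arrays labelled control. All 3 arrays labelled siChe-1 were higher, but they were widely spread, with replicate 1 lowest, whereas the control arrays lay close together. The mean was 5.24 ± 0.43 against 4.38 ± 0.04 (SD, n = 3 each). The rise was 0.86 ± 0.19 (SE, 1.82-fold, limma adjusted p = 0.0358). Without siChe-1 replicate 1 it was 1.10 with adjusted p = 0.000407, and without any other single array it did not pass (adjusted p = 0.0830 to 0.146). It also missed the threshold after another quantile normalization (0.80, adjusted p = 0.0511). The control mean of 4.38 is close to the olfactory receptor range, so the size of the rise is uncertain.

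SLC1A5, the glutamine exchanger of most proliferating cells and the nearest relative of SLC1A4, read 8.94, 9.22 and 9.10 in the arrays labelled siChe-1, against 8.87, 8.94 and 9.24. The groups overlapped and the difference was 0.07 (95% confidence interval -0.24 to 0.38). A second probe set of SLC1A5 averaged 5.98 in the arrays labelled siChe-1 and 5.81 in the arrays labelled control.

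The acidic carriers of this family take up glutamate and aspartate. SLC1A3, best known from astrocytes, read 6.23, 7.06 and 6.74 in the arrays labelled siChe-1, against 7.15, 7.14 and 7.25. All arrays labelled siChe-1 were below those labelled control, yet the difference of -0.50 ± 0.19 (SE) did not pass (limma adjusted p = 0.190). SLC1A1, the glutamate carrier of epithelia, read 5.51, 6.50 and 6.36, against 5.82, 5.76 and 6.11 in the arrays labelled control. Replicate 1 was below all control arrays and the other two were above them, so the difference of 0.23 did not pass with all arrays but was 0.53 without that array (limma adjusted p = 0.0354).

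**Figure D3:**
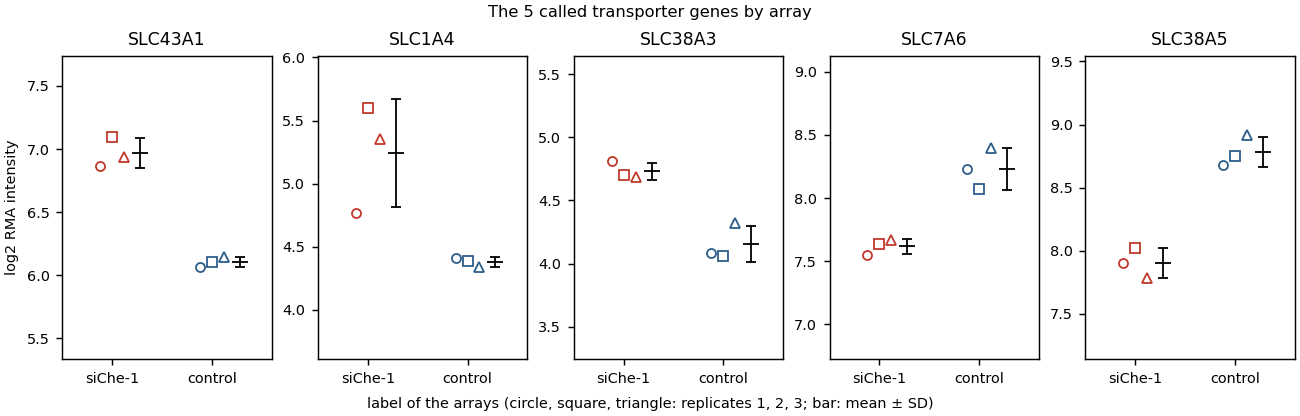
Log2 RMA intensity (vertical axis, each panel spanning the same range of log2 units) by array label (horizontal axis) for the 5 genes that passed, with circles, squares and triangles for replicates 1, 2 and 3 and bars for the mean and SD of 3 arrays. The 2 labels do not overlap in any panel, and SLC1A4 shows the widest spread among the arrays labelled siChe-1 (SD 0.43).

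Carriers of cationic amino acids and their relatives gave no change that passed. SLC7A1, the main arginine and lysine carrier of many cells, read 8.75, 9.52 and 9.09 in the arrays labelled siChe-1, against 8.69, 8.69 and 8.93. The groups overlapped, and the difference of 0.35 ± 0.18 (SE) did not pass (95% confidence interval -0.06 to 0.76, limma adjusted p = 0.374). SLC7A2, a relative that is induced in macrophages, differed by -0.02 (-0.38 to 0.34). SLC7A3, SLC7A4 and SLC7A14 lay in the olfactory receptor range.

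Other SLC7 proteins are light chains that work only when bound to a heavy chain, SLC3A2 or SLC3A1. SLC7A6, a light chain that exchanges cationic against neutral amino acids, was lower. It read 7.55, 7.64 and 7.66 in the arrays labelled siChe-1, against 8.23, 8.07 and 8.40 in the arrays labelled control. The 3 siChe-1 arrays lay close together and all below the control arrays. The mean was 7.62 ± 0.06 against 8.23 ± 0.16 (SD, n = 3 each), a difference of -0.61 ± 0.13 (SE, 1.53-fold lower, limma adjusted p = 0.0263). Leaving out siChe-1 replicate 1 kept the call (adjusted p = 0.0194), and leaving out any other array ended it (0.0505 to 0.117), with values between -0.69 and -0.53. SLC7A6OS, a gene that overlaps SLC7A6 on chromosome 16 in the RefSeq map, differed by -0.10 and did not pass.

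SLC7A5, the leucine carrier that supplies mTORC1, read 10.8, 11.0 and 10.8 in the arrays labelled siChe-1, against 10.9, 10.7 and 11.1. The groups lay on top of each other, and the 95% confidence interval of -0.30 to 0.30 bounds any difference at this precision. SLC7A5 has pseudogene copies, so its signal may be shared with them. SLC7A8, a light chain for neutral amino acids in epithelia, read 5.33, 5.37 and 5.62, against 5.09, 5.04 and 5.17 in the arrays labelled control. Its arrays did not overlap, but the difference of 0.34 did not pass (limma adjusted p = 0.179). SLC7A9, which pairs with SLC3A1 in kidney and intestine, and SLC7A10, a carrier of small neutral amino acids, differed by 0.10 and 0.03. Of the heavy chains, SLC3A2 read 9.35, 10.4 and 10.2 in the arrays labelled siChe-1, against 10.2, 10.3 and 10.5. Its replicate 1 was far below the other 5 arrays, and the difference of -0.35 did not pass (limma adjusted p = 0.483). SLC3A1 averaged 3.09 in the arrays labelled siChe-1 and 2.93 in the arrays labelled control, within the olfactory receptor range.

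Some SLC36 carriers are proton-coupled and move glycine, alanine and proline, and the family is found in the lysosome as well as at the cell surface. None of its 4 members passed by limma, where 3.72% of all genes did. Of the 4, 0 had an unadjusted p under 0.05, where 3251 of all 18417 genes did. The family is too small to read more from these counts. SLC36A1 differed by -0.08 (95% confidence interval -0.37 to 0.21) and SLC36A4 by 0.10 (-0.23 to 0.43). SLC36A2 had the largest difference, 0.21 ± 0.12 (SE, limma adjusted p = 0.423), at 3.30 in the arrays labelled siChe-1 and 3.08 in those labelled control, both in the olfactory receptor range.

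The SLC38 family held the largest fall, in SLC38A5, and a rise in its closest functional relative, SLC38A3. Both exchange sodium and glutamine for protons and can run in either direction. SLC38A5 read 7.90, 8.02 and 7.79 in the arrays labelled siChe-1, against 8.68, 8.75 and 8.91 in the arrays labelled control. The groups were clear of each other, and replicate 1 lay between the other two of its group. The mean was 7.90 ± 0.12 against 8.78 ± 0.12 (SD, n = 3 each), a difference of -0.88 ± 0.12 (SE, 1.84-fold lower, limma adjusted p = 0.00349). Its X chromosome neighbours among the tested genes, SSX3 (0.08) and FTSJ1 (-0.31), did not pass.

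SLC38A3, best known from liver, kidney and brain, read 4.81, 4.70 and 4.69 in the arrays labelled siChe-1, against 4.08, 4.06 and 4.32. All 3 arrays labelled siChe-1 were higher, but 2 of the control arrays lay below 4.12, in the olfactory receptor range. The mean was 4.73 ± 0.07 against 4.15 ± 0.14 (SD, n = 3 each). The rise of 0.58 ± 0.12 (SE, 1.49-fold, limma adjusted p = 0.0315) is therefore uncertain in size. It passed without siChe-1 replicate 1 (adjusted p = 0.0228) and did not pass without any other array (0.0546 to 0.150). GNAI2, the next tested gene on chromosome 3, was also higher (0.66, adjusted p = 0.0171), at 9.38 in the arrays labelled siChe-1 and 8.73 in those labelled control. GNAT1, the tested neighbour of SLC38A3 on the other side, did not pass (0.21, limma adjusted p = 0.486).

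The sodium-coupled carriers SLC38A1 and SLC38A2, which concentrate glutamine and alanine in the cell, lie side by side with SLC38A4 on chromosome 12. SLC38A2 read 11.5, 12.0 and 11.9 in the arrays labelled siChe-1, against 11.7, 11.5 and 11.6. SLC38A1 read 9.38, 10.1 and 10.1, against 9.59, 9.50 and 9.59 in the arrays labelled control. In both genes replicate 1 was below all control arrays and siChe-1 replicate 3 and replicate 2 were above them. With all arrays neither passed (0.20 and 0.29), and without siChe-1 replicate 1 SLC38A1 passed at 0.53 (limma adjusted p = 0.0144) and SLC38A2 did not at 0.38 (0.0666).

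Of the other SLC38 genes none passed. SLC38A7, a lysosomal glutamine exporter, read 5.71, 5.74 and 5.62 in the arrays labelled siChe-1, against 5.99, 6.06 and 6.49. Its groups did not overlap, and its difference of -0.49 missed the threshold (limma adjusted p = 0.104). SLC38A9, the lysosomal arginine sensor upstream of mTORC1, differed by 0.13 (95% confidence interval -0.26 to 0.51). SLC38A6 differed by -0.36, SLC38A10 by -0.20 and SLC38A12 by -0.06.

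**Figure D4:**
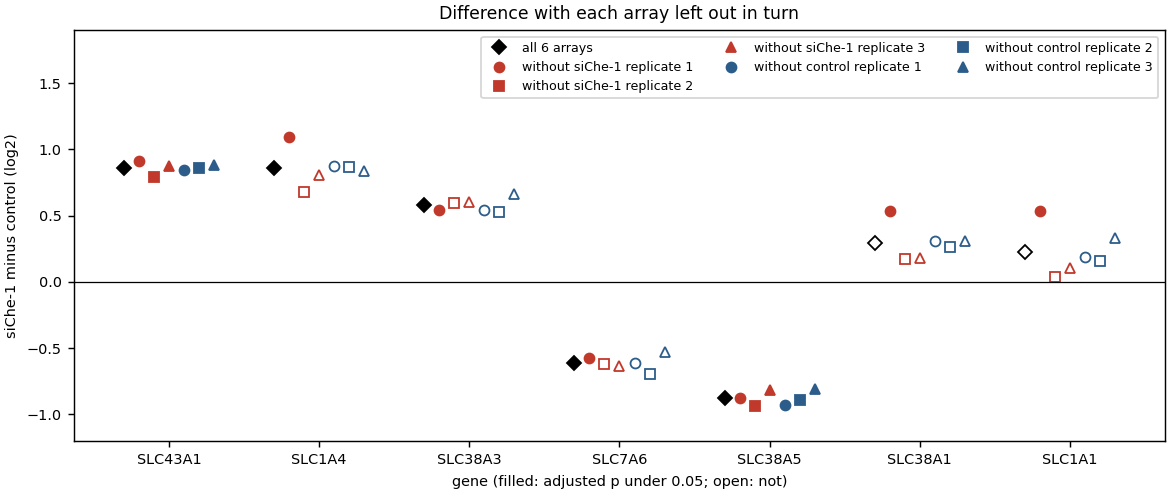
Difference siChe-1 minus control (vertical axis, log2) for the 5 genes that passed and for SLC38A1 and SLC1A1 (horizontal axis), with all 6 arrays (black diamond) and with each array left out in turn; filled symbols have an adjusted p under 0.05. SLC43A1 and SLC38A5 stay filled throughout, and SLC38A1 and SLC1A1 are filled only without siChe-1 replicate 1.

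SLC43A1 and SLC38A5 passed whichever array was left out, with differences of 0.79 to 0.91 and -0.94 to -0.81. The array labelled siChe-1 replicate 1 stood apart for many carriers and for genes at large. Over all probe sets it correlated at 0.982 and 0.985 with replicates 2 and 3 of its label, which correlated at 0.993 with each other. Its correlation with control replicate 1 was 0.982. Among the 24 members above the olfactory receptor range it was the lowest of its group for 16 (66.7%) and the highest for 3. Of the 12639 genes above that range it was the lowest for 46.6% and the highest for 5005. It lay below the mean of replicates 2 and 3 by 0.92 on the log2 scale for SLC1A1, 0.71 for SLC38A1 and for SLC1A4, and 0.67 for SLC1A3. Without it 7 members passed, the 5 named above with SLC1A1 and SLC38A1, where 8.50% of all genes did. Without any 1 of the other 5 arrays, 2 members passed, SLC43A1 and SLC38A5, where 1.48% to 2.51% of all genes did.

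Genes of the amino acid response that passed went both ways, with more higher than lower, and most differences of the list were above 0. Of 30 measured genes of the response, a list that also holds SLC7A11 and SLC3A2, 7 were higher, 2 were lower and 21 did not pass, with a median difference of 0.33. That is 30% of the list, against 3.72% of all genes. Differences were above 0 for 27 of the 30 and below 0 for 3, against 9372 and 9045 of all 18417 genes. By limma, 17 of the 30 had an unadjusted p under 0.05, where 3251 of all genes did. Arrays of the 2 labels did not overlap for 56.7% of the list, against 24.0% of all genes. Leaving out SLC7A11 and SLC3A2, 6 of 28 were higher and 2 were lower (28.6%). Without siChe-1 replicate 1, 14 of the 30 passed, against 8.50% of all genes. CHAC1, which degrades glutathione, read 7.91, 8.36 and 7.77 in the arrays labelled siChe-1, against 5.68, 5.84 and 5.88 (2.21, adjusted p = 2.97e-05). DDIT4, an mTORC1 inhibitor (1.36), and the cystine carrier SLC7A11 (1.63, adjusted p = 0.0150) were also among the 7. SLC7A11 read 8.05, 9.48 and 9.19, against 7.35, 7.14 and 7.32 in the arrays labelled control, so its replicate 1 was also the lowest of its group. The others were ATF4 (0.81), PHGDH (0.86), TRIB3 (0.80) and ASNS (1.16), and the lower genes were ATF3 (-0.80) and PPP1R15A (-1.02). DDIT3 differed by 0.25 and did not pass (adjusted p = 0.475).

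Of the 7 members known as targets of ATF4, SLC43A1 and SLC1A4 were higher and SLC7A1 (0.35), SLC38A2 (0.20), SLC1A5 (0.07), SLC7A5 (0.00) and SLC7A3 (-0.12) did not pass. The 2 higher genes are 28.6% of these 7, where 1.19% of all genes were higher, and the list is too short to read more from that share. Their median was 0.20, and SLC7A3 lay in the olfactory receptor range. Whether the response of these genes differed from one another was not tested.

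**Figure D5:**
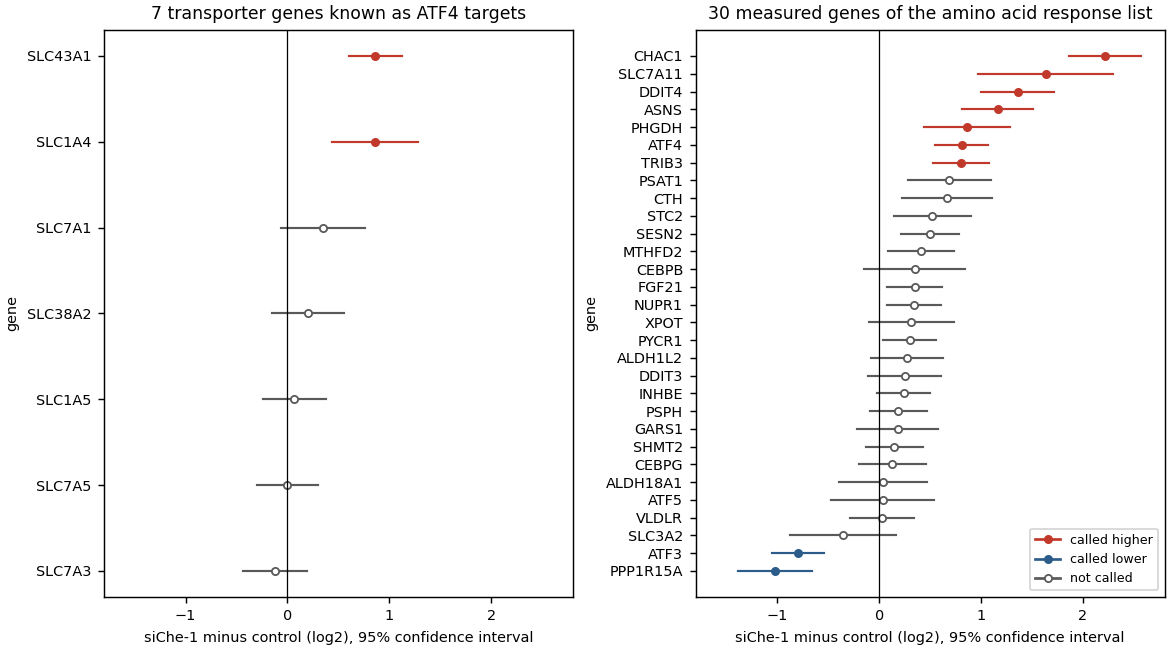
Difference siChe-1 minus control (horizontal axis, log2, with 95% confidence intervals) for the 7 transporter genes known as ATF4 targets (left panel) and the 30 measured genes of the amino acid response list (right panel), sorted by value on the vertical axis; filled points passed. CHAC1 reaches 2.21, and 5 of the 7 transporter genes did not pass.

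Carriers of amino acids in other families mostly did not pass. Of 26 such genes 1 was higher, SLC6A9, a glycine carrier, at 6.59, 7.01 and 6.70 in the arrays labelled siChe-1, against 5.96, 5.97 and 6.18 (0.73, limma adjusted p = 0.0201). The other 25 did not pass, and the median was -0.12. This 1 gene is 3.85% of the list, a share close to the 3.72% of all genes that passed. By limma, 8 of the 26 had an unadjusted p under 0.05, where 3251 of all 18417 genes did. Arrays of the 2 labels did not overlap for 38.5% of the list, against 24.0% of all genes. Differences were below 0 for 18 of the 26, and for 9045 of all 18417 genes. The genes of amino acid sensing by mTORC1 gave no limma call among 30 measured, where 3.72% of all genes passed. Of the 30, 3 had an unadjusted p under 0.05, where 3251 of all 18417 genes did. Arrays of the 2 labels did not overlap for 30% of these genes, against 24.0% of all genes. Their differences were below 0 for 20 of the 30, and their median was -0.11.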

How the data were processed

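The deposited values are log2 intensities of 33297 probe sets on 6 arrays, made by the authors, per the submitters' processing notes, with Affymetrix Expression Console and RMA, from 6 micrograms of total RNA per array, per the labels. Version and settings are not given in the sources used here. RMA makes array distributions alike and compresses differences of dim genes. There were 0 other columns of values.

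The platform annotation gave 1 symbol for 19460 probe sets and several for 1754; for 12083 it had no entry. Groups were compared in R 4.3.3 with limma 3.58.1 (lmFit, eBayes, no covariate, no filter), two-sided, with Benjamini-Hochberg adjustment over 18417 genes and calls under 0.05. Tested on simulated data of 18417 genes for this comparison, it recovered 74% of 2-fold and 97% of 4-fold changes, and 3.39% of calls were false. The simulated noise was independent between genes and of equal size on all arrays. These rates therefore do not allow for an array that stands apart, as siChe-1 replicate 1 did.

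Members and gene lists were chosen with earlier results of these data known. Named were the members, AATF, SLC7A11, the heavy chains, ASNS, CHAC1, DDIT3, TRIB3 and up to 3 called genes with the largest change per other list; the remaining called genes of the amino acid response, neighbours of called members on the map and TYROBP, COL1A1 and COL1A2 were named after their values were seen. GPT2 and CBS of the response list were not analysed here. The number of arrays limits the precision.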

Additional observations from a re-analysis of the deposited data

How the results depend on the processing

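None of the 5 called members changed sign under the 9 alternatives that could move their difference (another quantile normalization, centring, array weights and leaving out each array), while 15 members that did not pass changed sign under at least 1 alternative. Of all genes, 685 passed by limma; 408 did with every row tested, 2865 with array weights, 261 at an adjusted p under 0.01, 187 with a difference of at least 1, and between 272 and 1565 with 1 array left out. With arrays centred on their medians the split was 170 higher and 680 lower, against 220 and 465. Of the members 5 passed; 3 did without the dimmest 40% of genes (which leaves out SLC1A4 and SLC38A3), 2 with every row tested, 10 with array weights, 2 at 0.01, 0 with a difference of at least 1 (with all arrays, 8 of the 37 had an unadjusted p under 0.05, and 3251 of all 18417 genes did), and between 2 and 7 with 1 array left out. Array weights added SLC1A1, SLC7A8, SLC38A1, SLC1A3 and SLC38A7. The members' median of 0.02 was -0.045 after centring and 0.083 without genes under the olfactory receptor 95th percentile, which leaves out 13 members. Of the amino acid response list 9 passed, against 17 with array weights, 5 with a difference of at least 1 and between 6 and 14 with 1 array left out. With the replicate number as a block 1145 genes passed and the same 5 members did; deviations of same-numbered arrays correlated at 0.23, 0.06 and -0.04, so the numbers are not shown to pair the arrays. Other causes were not tested. RMA values hold no detection calls, so levels near 4.12 and below have no known background.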
